A study of Mus musculus with 8 samples.

Results

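The tripartite motif (TRIM) family of ubiquitin ligases was described in microglia, the macrophages that live in brain and spinal cord tissue, taken from mice with neuromyelitis optica (NMO) and from control mice. Its members were the protein-coding genes of the GENCODE M21 annotation whose symbol is Trim followed by a number and an optional letter suffix. The annotation holds 68 such genes, and 67 of them are among the 41388 identifiers of the count files. Trim61 was not analysed here. Of the 67, 41 had 10 or more counts in at least 2 of the 8 libraries and are reported below, and the other 26 lay under that level.

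TRIM proteins share a RING domain that recruits a ubiquitin-conjugating (E2) enzyme, B-box zinc fingers and a coiled coil, followed by a variable carboxy-terminal part that binds the substrate. Many of them switch innate sensing up or down: Trim25 ubiquitinates the RNA sensor RIG-I, the cytosolic antibody receptor Trim21 binds the Fc part of immunoglobulin G, and Trim30a restrains Toll-like receptor signalling by removing Tab2 and Tab3. Others work far from immunity, such as Trim28, the co-repressor of KRAB zinc finger proteins, and Trim2, a ligase of neurofilament light chain known from axons.

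The cells came from adult mice on a C57BL/6 background and were isolated ex vivo by CD11b, CD45 and CD11c. The 3 groups were CD11c+ microglia of NMO mice (n = 2 libraries), CD11c- microglia of NMO mice (n = 3) and microglia of unmanipulated control mice (n = 3). Not given in the sources used here were how NMO was brought about, any age beyond adult and how many animals made a library. The titles of the control libraries call the cells total microglia, whereas another label lists them as CD11c negative. Nothing in the labels ties each library to a mouse of its own, and p-values below therefore reflect the spread among these samples alone, which may be technical. The control libraries carry numbers from another range (21 to 23) than the NMO libraries (7 to 12), and handling and disease cannot be told apart if the 2 sets were prepared differently.

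Libraries held 4943207 and 5914412 counts in NMO CD11c+, 6437516 to 6819662 in NMO CD11c- and 7500815 to 9246061 in control. Itgax, which encodes CD11c, stood at 188 and 181 CPM (counts relative to the TMM-scaled library size) in NMO CD11c+ libraries, at 35.5, 41.3 and 40.0 CPM in NMO CD11c- libraries and at 30.6, 32.1 and 31.0 CPM in controls. The 9 microglia markers (P2ry12, Tmem119, Cx3cr1 and others) summed to 27670 to 28746 CPM in NMO CD11c+, 28129 to 34795 CPM in NMO CD11c- and 34228 to 38269 CPM in control. The 13 neutrophil markers summed to 17.6 to 22.2 CPM in NMO CD11c+, with Ly6g and Elane at 0, to 2231 to 11629 CPM in NMO CD11c- and to 925 to 1914 CPM in control. The 9 monocyte markers summed to 46.5 to 55.6 CPM in NMO CD11c+, 203 to 994 CPM in NMO CD11c- and 83.8 to 159 CPM in control. NMO CD11c+ replicate 1 stood apart from the other libraries: over all tested genes, its deviation from the average rank-correlated with GC content at 0.592, against -0.299 to -0.0378 in the other 7. Each TRIM gene called with it is also given without it. In bulk RNA, fewer cells of a type and less RNA per cell cannot be told apart.

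The letters that begin several of these genes are shown first, because the interferon-stimulated response element (ISRE), the DNA motif bound by interferon-activated factors, recurs among the family's neighbours on chromosome 7. RefSeq promoter windows (GRCm38.p6, 250 bases before to 50 after each start site) were at hand for 31 of the 41 genes. The core GAAANNGAAA, searched on both strands, was found in 9 of the 31 (29.0%), against 3.99% of 27025 genes with a window. Of those 9, 6 are neighbours on chromosome 7, some with the same letters, so the 9 are not independent finds. Capitals mark the core in the stretches of 30 bases below, read 5′ to 3′ on the strand of the gene, and overlapping matches are marked as 1 run.
Trim12a: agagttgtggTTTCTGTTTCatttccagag
Trim5: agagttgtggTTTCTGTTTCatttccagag
Trim12c: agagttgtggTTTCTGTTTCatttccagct
Trim30a: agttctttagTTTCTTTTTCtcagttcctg
Trim30d: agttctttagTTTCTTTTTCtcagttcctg
Trim34a: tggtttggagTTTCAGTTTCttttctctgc
Trim21: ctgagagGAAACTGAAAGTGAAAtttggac
Trim26: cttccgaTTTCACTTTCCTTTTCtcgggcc
Trim2: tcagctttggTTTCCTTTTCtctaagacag

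The Trim12a and Trim5 stretches differ at 0 letters, Trim12c differs from both at 2 letters, and the Trim30a and Trim30d stretches differ at 0 letters. They lie at chr7:104315466-104315495 (Trim12a), chr7:104288136-104288165 (Trim5), chr7:104353359-104353388 (Trim12c), chr7:104465210-104465239 (Trim30a), chr7:104507871-104507900 (Trim30d) and chr7:104244457-104244486 (Trim34a). Those of the remaining genes lie at chr7:102565447-102565476 (Trim21), chr17:36836979-36837008 (Trim26) and chr3:84212791-84212820 (Trim2), all on the minus strand except Trim34a and Trim26. Relative to the RefSeq start, the core covers bases 11 to 20 in Trim12a and Trim34a, -29 to -20 in Trim12c, -49 to -40 in Trim5, -36 to -27 in Trim30a and -41 to -32 in Trim30d. Trim30a has another match at its other start site, and Trim2 has its match at 1 of 5 start sites. The windows of Trim25, Trim7 and Trim41 hold no match, which says only that these letters are not there. The interferon-gamma-activated site core TTCNNNGAA was in 3 of the 31 genes (9.68%; Trim15, Trim30c and Trim45), against 9.55% of all genes, and none of these holds the ISRE core.

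By level per length, the family spanned from 61.3 RPKM (CPM per kilobase of merged exons, mean of all 8 libraries) for Trim8 to 0.155 RPKM for Trim67. Of the 41 genes, 15 were at 10 RPKM or more, 20 between 1 and 10 RPKM, and 6 under 1 RPKM. After Trim8, which is known to act in cytokine signalling, came Trim47 (59.6 RPKM), Trim28 (52.3 RPKM), Trim30a (46.3 RPKM) and Trim41 (37.5 RPKM). Trim25 was at 13.9 RPKM, Trim21 at 9.95 RPKM and Trim2 at 2.51 RPKM. The rank of Trim47 rests on uneven libraries, with 103 and 280 CPM in NMO CD11c+, 64.0, 95.9 and 169 CPM in NMO CD11c- and 291, 147 and 153 CPM in control, so that all groups overlap. Trim47 also overlaps Trim65 on the same strand.

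**Figure D1:**
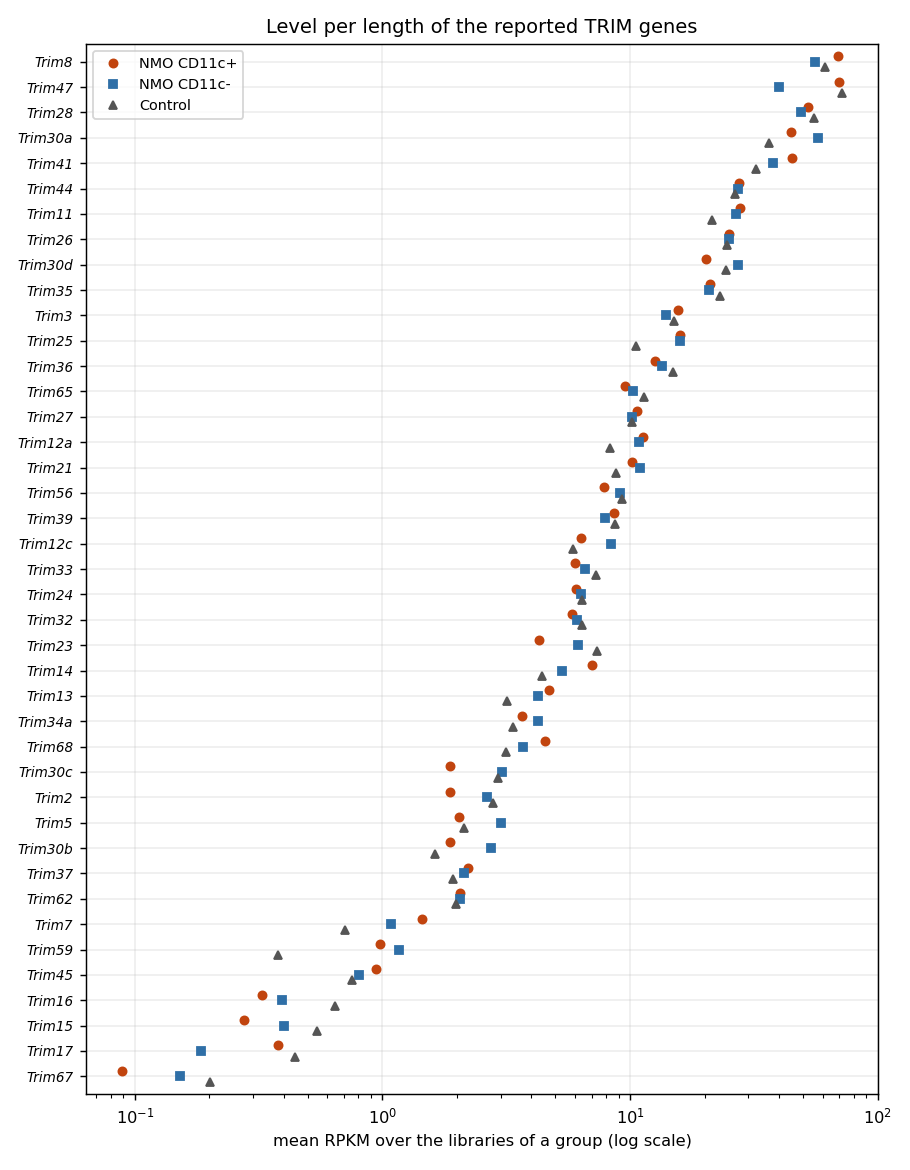
Mean RPKM (log axis) of the 41 reported TRIM genes in NMO CD11c+ (circles), NMO CD11c- (squares) and control libraries (triangles), ordered by the mean over all 8 libraries. Trim8 stands at the top with 61.3 RPKM and Trim67 at the bottom with 0.155 RPKM, and for most genes the groups lie close together.

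The 26 genes under the level had few counts or none. Trim31, Trim38, Trim40, Trim42, Trim43a, Trim43b, Trim52, Trim54, Trim60, Trim63, Trim71, Trim75 and Trim80 had 0 counts in every library. The other 13 (Trim6, Trim9, Trim10, Trim29, Trim34b, Trim43c, Trim46, Trim50, Trim55, Trim58, Trim66, Trim69 and Trim72) reached at most 12 counts in a library, the value of Trim43c. The muscle ligases Trim54, Trim55, Trim63 and Trim72 were all among the 26. Summed over the 41 reported genes, the family took 2395 and 2690 CPM in NMO CD11c+ libraries, 2414 to 2591 CPM in NMO CD11c- libraries and 2412 to 2511 CPM in control libraries, so that its total overlapped between groups.

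In NMO CD11c+ microglia against control, Trim25, Trim14, Trim12a, Trim41 and Trim7 were higher and Trim2 was lower. The increases ran from 1.36-fold for Trim12a to 2.06-fold for Trim7, and Trim2 stood at 0.671 of its control level. Thus 5 of 41 genes (12.2%) were called higher, against 6.85% of the 12002 genes tested, and 1 of 41 (2.44%) lower, against 3.36%. A call means an adjusted p under 0.05 in edgeR's quasi-likelihood test with Benjamini-Hochberg adjustment over all 12002 genes, and adjusted p has this meaning throughout. The median log2 fold change of the 41 genes was 0.04, beside 0.01 over all genes tested, with 22 positive and 19 negative values. Fold changes below are fitted log2 values with their standard error (SE).

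In NMO CD11c- microglia against control, Trim25 alone of the family was called by edgeR, and it was higher. This is 1 of 41 genes (2.44%), against 3% of all genes tested. None of the 41 was called lower, against 0.717% of all genes. DESeq2 called 3 of 41 higher (Trim25, Trim30a and Trim59), against 4.34% of the genes it tested. At an unadjusted p under 0.05 edgeR gave 10 of 41 higher, where 11.7% of all genes passed, and 1 lower gene, Trim17, 1 of 41 where 7.02% of all genes passed, and DESeq2 called 0 lower. The median log2 fold change was 0.04, beside -0.00 over all genes.

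Between the NMO subsets, 0 of 41 genes were called higher in CD11c+ (0.1% of all genes) and 0 lower (0.183%) by edgeR, and DESeq2 called 0 in either direction. At an unadjusted p under 0.05, edgeR gave Trim14 and Trim8 higher, 2 of 41 where 7.9% of all genes passed, and Trim2, Trim30d and Trim5 lower, 3 of 41 where 7.54% passed. The comparisons of NMO CD11c+ and NMO CD11c- with control use the same 3 control libraries, and their values are set side by side below without a measure of agreement.

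**Figure D2:**
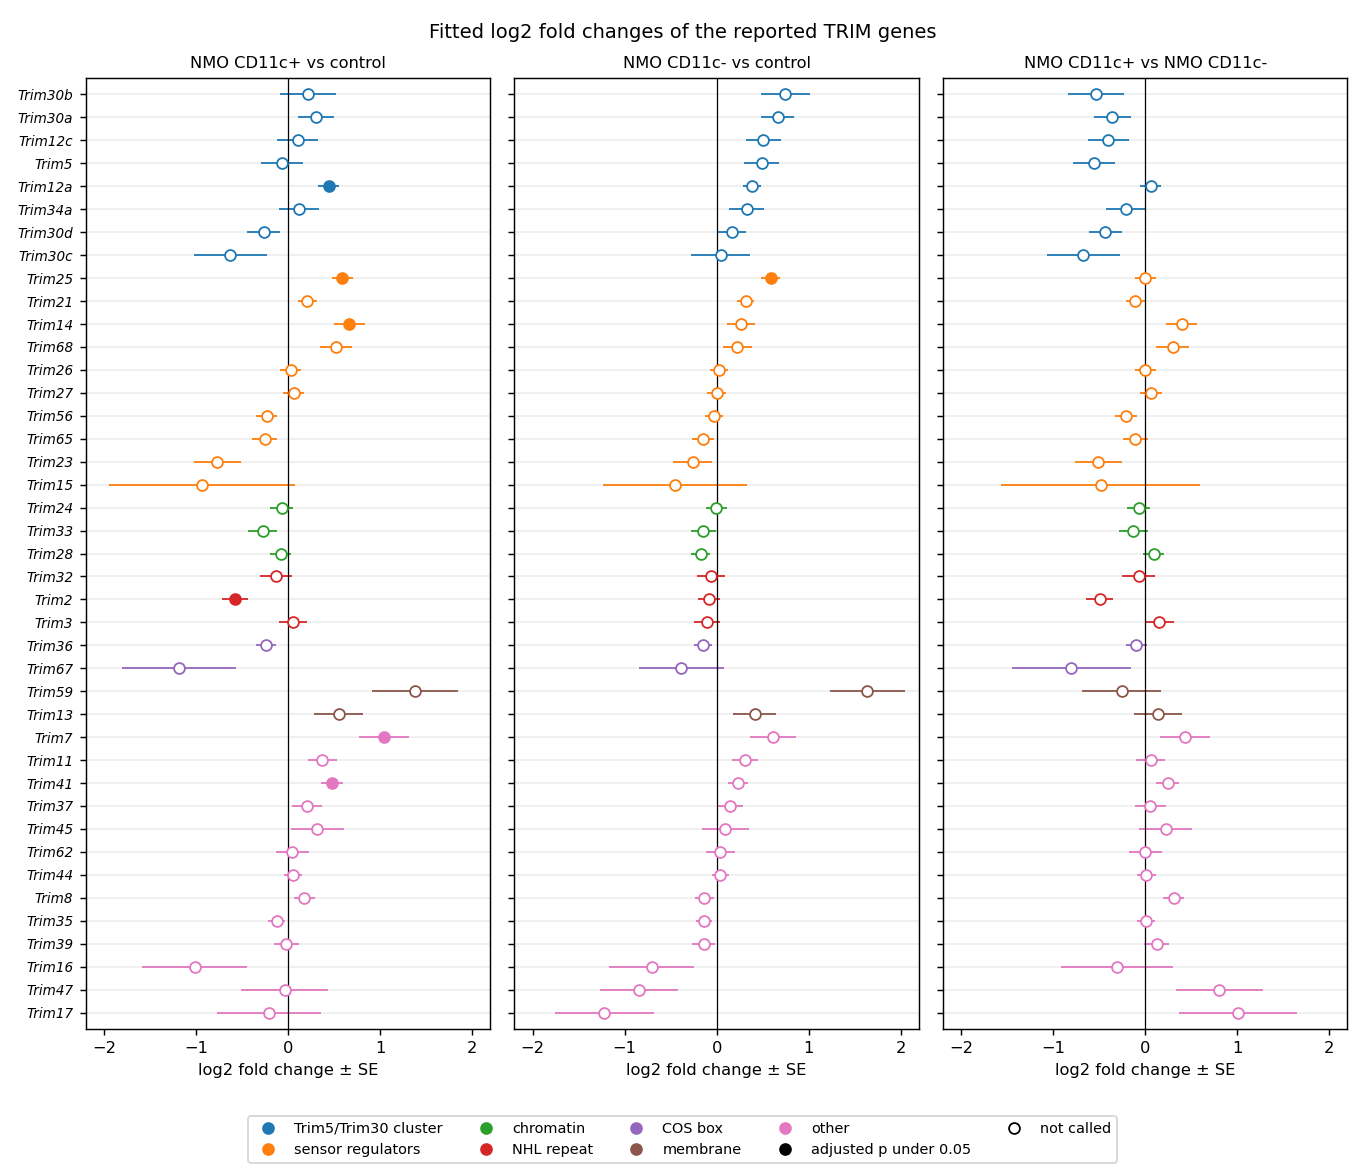
Fitted log2 fold change ± SE of the 41 reported TRIM genes in 3 panels, with each NMO subset set against control (CD11c+ left, CD11c- middle) and the subsets set against each other (right), grouped by role (colours). Filled points have an adjusted p under 0.05: Trim25, Trim14, Trim12a, Trim41, Trim7 and Trim2 in the left panel, Trim25 in the middle panel and none in the right panel.

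Of the regulators of sensing and interferon signalling, 10 of 15 listed genes were tested. Against control, 2 were higher and 0 lower in NMO CD11c+ (median log2 fold change 0.05), and 1 was higher and 0 lower in NMO CD11c- (median 0.01). Of all genes tested, 6.85% were higher in NMO CD11c+ and 3% in NMO CD11c-. Trim25, the ligase of RIG-I and also of the ubiquitin-like protein Isg15, is ENSMUSG00000000275 at chr11:88999376-89020293 (GRCm38, plus strand). It had 81.5 and 102 CPM in NMO CD11c+ libraries, 95.3, 89.1 and 90.4 CPM in NMO CD11c- libraries and 62.1, 58.8 and 62.1 CPM in controls. All 5 NMO libraries lay above all 3 controls, and the NMO subsets overlapped. The log2 fold change was 0.59 ± 0.11 (adjusted p = 0.0109) for NMO CD11c+ and 0.59 ± 0.10 (adjusted p = 0.0120) for NMO CD11c-, while the subsets differed by 0.00 ± 0.11. The NMO CD11c+ value without NMO CD11c+ replicate 1 was 0.74 (adjusted p = 0.00143). That call was lost without control replicate 2 (adjusted p = 0.0545) and in a fit of only the 2 groups (0.0518). The NMO CD11c- call was lost without NMO CD11c- replicate 1 (0.0544) and without control replicate 1, 2 or 3 (0.0639, 0.0745 and 0.0574).

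Of the 13 neutrophil markers, 11 were called lower and 0 higher in NMO CD11c+ than in control, and 2 were called higher and 0 lower in NMO CD11c-. The part of neutrophil or monocyte RNA in the TRIM values was not tested.

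Trim14, an adaptor at the mitochondrial protein Mavs that itself lacks a RING domain, had 34.7 and 26.2 CPM in NMO CD11c+ libraries, 20.4, 23.8 and 25.1 CPM in NMO CD11c- libraries and 19.9, 17.0 and 20.7 CPM in controls. Both NMO CD11c+ libraries were above every other library, and NMO CD11c- overlapped control. The gene rose in NMO CD11c+ by 0.66 ± 0.17 (adjusted p = 0.0342), and the NMO CD11c- value was 0.27 ± 0.15 (adjusted p = 0.379). The value without NMO CD11c+ replicate 1 was 0.45 (adjusted p = 0.154). The call was also lost without NMO CD11c- replicate 3 (0.0536), without control replicate 1, 2 or 3 (0.0881, 0.116 and 0.0801) and in a fit of only the 2 groups (0.0792). Trim14 overlaps Nans on the opposite strand, and 50.2% of its windows of 50 transcript bases also occur in Nans. The strand setting of the counting is not given in the sources used here, so how reads of the shared part were assigned is not known. Nans itself was at 36.8 ± 10.1 CPM in NMO CD11c+ and 30.5 ± 3.74 CPM in control (SD, n = 2 and 3), and its log2 difference of 0.27 was not called (adjusted p = 0.336).

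Trim21 was tightly grouped. Its libraries held 37.4 and 38.2 CPM in NMO CD11c+, 40.7, 40.2 and 41.1 CPM in NMO CD11c- and 33.3, 32.1 and 32.7 CPM in control. The groups did not overlap, with NMO CD11c- the highest and control the lowest, yet no comparison was called. The log2 fold changes against control were 0.21 ± 0.10 (adjusted p = 0.211) for NMO CD11c+ and 0.32 ± 0.09 (adjusted p = 0.0907) for NMO CD11c-. The NMO CD11c- difference passed after a correction for GC content and length (0.34, adjusted p = 0.0292). Without NMO CD11c+ replicate 1 in the shared fit it was 0.31. No fit without an NMO CD11c- or control library called it (adjusted p of up to 0.278).

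The remaining sensor regulators were not called. Trim26, which is known to act on the interferon factor Irf3, had log2 values against control of 0.03 in both NMO CD11c+ and NMO CD11c-, and Trim27 had 0.06 and -0.00. Trim56, a ligase linked to Sting, was at -0.23 and -0.03, and Trim65, a ligase of the RNA sensor Mda5, at -0.26 and -0.15. Trim68 had a log2 value of 0.52 in NMO CD11c+ (adjusted p = 0.0879) and 0.22 in NMO CD11c-. Trim15 reached at most 1.82 CPM in a library, and its log2 values were -0.93 and -0.45. Trim23, which carries an ADP-ribosylation factor domain, was at 15.1 and 34.2 CPM in NMO CD11c+, 35.8, 33.4 and 36.9 CPM in NMO CD11c- and 43.9, 43.0 and 40.1 CPM in control. Every NMO library was below every control. Its NMO CD11c+ value of -0.77 ± 0.25 (adjusted p = 0.0796) was -0.31 without NMO CD11c+ replicate 1, and Trim23 has the lowest GC content of the 41 (37.4%).

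The Trim5/Trim30 genes on chromosome 7 are rodent relatives of the retrovirus restriction factor TRIM5 of primates. From Trim6 through Trim34a, Trim5, Trim12a, Trim34b, Trim12c, Trim30b, Trim30c and Trim30a to Trim30d, they fill chr7:104218793-104507849 (GRCm38), and 8 of the 10 were reported. In NMO CD11c- all 8 fitted log2 values against control were positive, from 0.04 (Trim30c) to 0.75 (Trim30b), with a median of 0.44 beside -0.00 over all genes tested. edgeR called 0 of the 8 there (3% of all genes tested), and 5 passed at an unadjusted p under 0.05 (11.7% of all genes). DESeq2 called 1, Trim30a (4.34% of the genes it tested). After the GC and length correction 3 of the 8 were called (5.72% of all genes), and 4 in a fit of only the 2 groups (6.9%). The fits without an NMO CD11c- or control library called none of the 8. In NMO CD11c+ 1 of the 8 was called higher, Trim12a, and the median was 0.11 beside 0.01 over all genes. After the GC and length correction 2 were called higher there, Trim12a and Trim30a (7.7% of all genes). Of the 8 genes, 6 hold the ISRE core in their window.

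Trim12a (ENSMUSG00000066258, chr7:104299894-104315466, minus strand) had 60.9 and 69.4 CPM in NMO CD11c+ libraries, 59.3, 65.9 and 62.4 CPM in NMO CD11c- libraries and 48.4, 43.8 and 51.7 CPM in controls. All NMO libraries exceeded all controls. The log2 fold change was 0.44 ± 0.11 (adjusted p = 0.0379) in NMO CD11c+ and 0.38 ± 0.10 (adjusted p = 0.0737) in NMO CD11c-. The NMO CD11c+ value without replicate 1 of that group was 0.53 (adjusted p = 0.0241), and after the GC and length correction it was 0.73 (adjusted p = 0.00386). The call was lost without NMO CD11c+ replicate 2 (0.0533), NMO CD11c- replicate 1 (0.0636) or 3 (0.0698), without control replicate 1, 2 or 3 (0.102, 0.129 and 0.0729), with library size scaling (0.0527), without a low-count filter (0.0574) and in a fit of only the 2 groups (0.108).

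Trim30a, the best expressed gene of the cluster per length, had 133.6 and 235 CPM in NMO CD11c+ libraries, 236, 229 and 243 CPM in NMO CD11c- libraries and 133.3, 158 and 157 CPM in controls. The NMO CD11c- libraries were all above the controls, but the NMO CD11c+ libraries split, 1 beside the controls and 1 beside NMO CD11c-. Its log2 values against control were 0.31 ± 0.20 (adjusted p = 0.327) in NMO CD11c+ and 0.66 ± 0.18 (adjusted p = 0.0712) in NMO CD11c-. Without NMO CD11c+ replicate 1 they were 0.65 (adjusted p = 0.00872) and 0.66 (adjusted p = 0.00144). DESeq2 called the NMO CD11c- difference (0.66, adjusted p = 0.00613), as did the fit after the GC and length correction (0.69, adjusted p = 0.00271). That correction also called the NMO CD11c+ difference (0.52, adjusted p = 0.0136). No fit without an NMO CD11c- or control library called the NMO CD11c- difference (adjusted p of up to 0.267). The NMO CD11c+ libraries of Trim30b were also far apart, 1 below every control and 1 within the range of NMO CD11c-, with 7.97 and 20.3 CPM in NMO CD11c+, 21.4, 21.4 and 19.1 CPM in NMO CD11c- and 10.4, 13.8 and 12.6 CPM in control.

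That split ran through the cluster. All 8 genes were lower in NMO CD11c+ replicate 1 than in replicate 2, with a median log2 ratio of -0.79, as were 18 of the 33 other TRIM genes, with a median of -0.08. The summed level of the 8 was 292 and 474 CPM in NMO CD11c+, 471, 482 and 489 CPM in NMO CD11c- and 326, 352 and 356 CPM in control. The transcripts of the cluster are poor in GC, with a median of 40.9% against 51.0% for the other 33 genes. Left without NMO CD11c+ replicate 1, the 8 log2 fold changes had medians of 0.37 (NMO CD11c+ over control), 0.44 (NMO CD11c- over control) and -0.04 (NMO CD11c+ over NMO CD11c-). Without replicate 2 in its place they were -0.35, 0.44 and -0.85, and after the GC and length correction 0.28, 0.45 and -0.22. The direction of the cluster in NMO CD11c+ therefore depends on which of its 2 libraries is used.

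**Figure D3:**
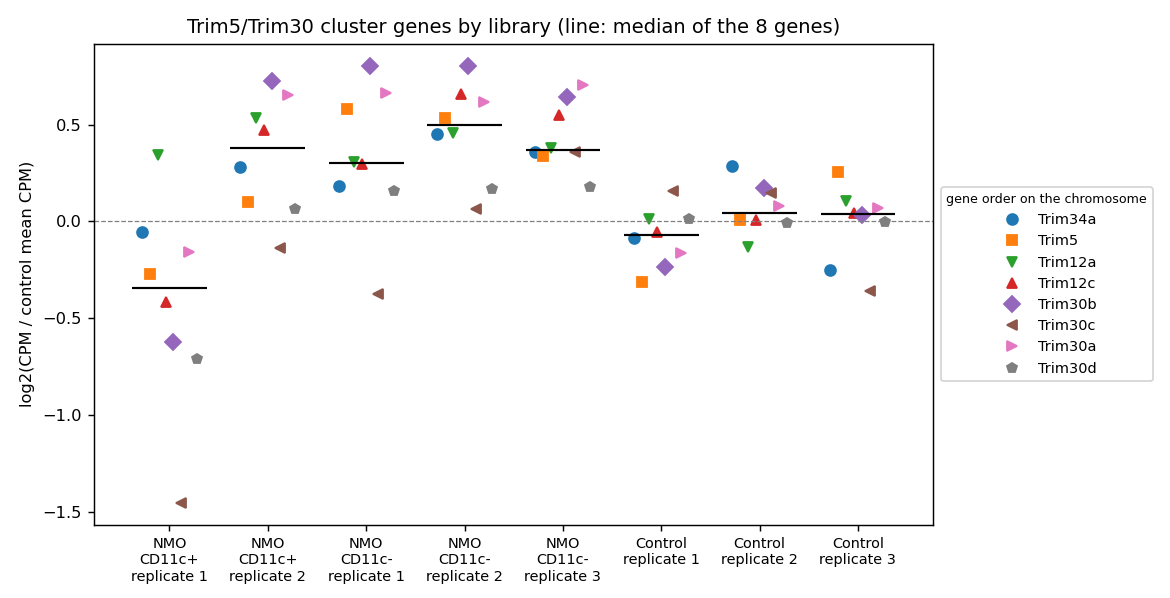
Log2 ratio of CPM to the control mean for the 8 reported Trim5/Trim30 cluster genes (symbols) in each library, with the median of the 8 as a line. The medians are -0.34 and 0.38 for NMO CD11c+, 0.30 to 0.50 for NMO CD11c- and -0.07 to 0.04 for control, and the NMO CD11c+ libraries lie on opposite sides of the controls.

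**Figure D4:**
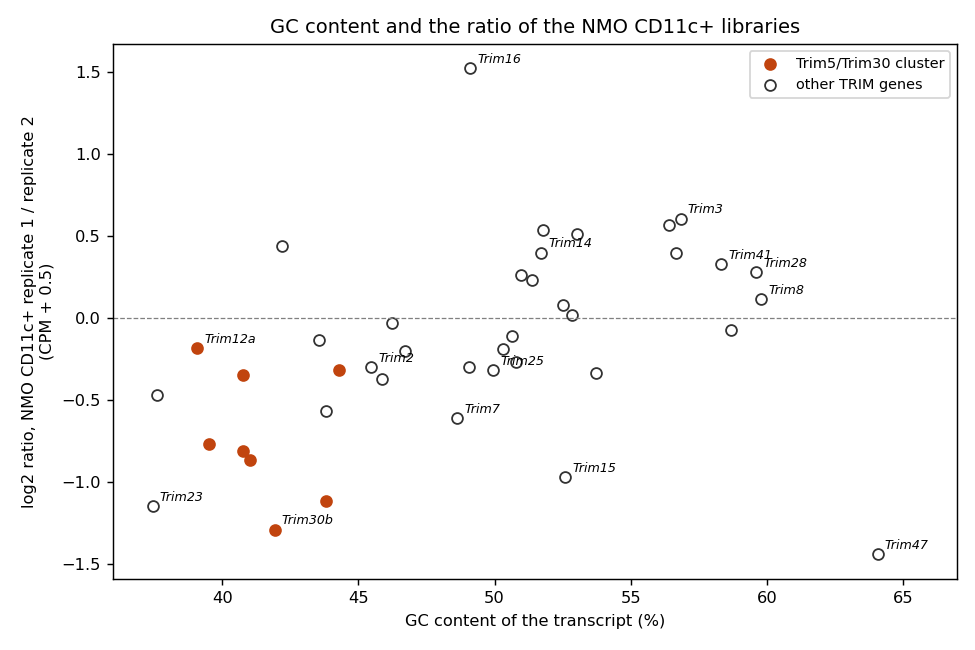
GC content of the transcript (%) against the log2 ratio of NMO CD11c+ replicate 1 to replicate 2 (CPM plus 0.5) for the 41 reported TRIM genes, with the Trim5/Trim30 cluster filled. All 8 cluster genes lie under 0, at 39.1% to 44.3% GC. The Spearman correlation over the 41 genes is 0.52 and over the 33 genes outside the cluster 0.37, across genes that share the same 2 libraries and are not independent replicates.

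Reads within the cluster may be shared between copies. Of the transcript windows of 50 bases, 41.3% of those of Trim34a also occur in Trim34b, 24.7% of those of Trim5 in Trim12c, 24.5% of those of Trim12c in Trim5, and 6.53% of those of Trim30a in Trim30d. The levels of Trim34a, Trim5 and Trim12c are uncertain for that reason, and so is that of Trim12a. Windows came from the longest transcript of each gene, and 4.59% of those of Trim12a occur in another gene. Yet windows of Trim5 and of Trim12c also occur in transcripts of Trim12a. Over all 31 genes with a promoter window, the median log2 value of NMO CD11c- against control was 0.33 for the 9 with the ISRE core (8 positive) and 0.04 for the 22 without it (12 positive). Of the 9, the 6 cluster genes had a median of 0.44 and the 3 elsewhere one of 0.03, beside the 0.04 of genes without the core. In NMO CD11c+ the medians were 0.11 with the core and 0.05 without it, and the part of the motif in these values was not tested.

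Trim41 and Trim7 are head-to-head neighbours on chromosome 11, 8786 bases apart, and both rose in NMO CD11c+ microglia. Trim41 (chr11:48806404-48817353, minus strand), a ligase of protein kinase C, had 176 and 140.1 CPM in NMO CD11c+ libraries, 119.7, 140.3 and 139 CPM in NMO CD11c- libraries and 112, 117 and 111 CPM in controls. Every NMO library was above the controls, and the NMO subsets overlapped. The log2 fold change was 0.48 ± 0.12 (adjusted p = 0.0371) in NMO CD11c+ and 0.23 ± 0.11 (adjusted p = 0.296) in NMO CD11c-. Without NMO CD11c+ replicate 1 the NMO CD11c+ value was 0.30. After the GC and length correction it was 0.26 and not called (adjusted p = 0.0592). The same correction gave 0.27 in NMO CD11c-, which was called (adjusted p = 0.0473), and a difference of -0.01 between the subsets. The NMO CD11c+ call was also lost without NMO CD11c- replicate 1 (0.0504) or 3 (0.0622), without control replicate 1, 2 or 3 (0.116, 0.0971 and 0.119), with library size scaling (0.0566) and in a fit of only the 2 groups (0.0829). Trim41 overlaps the ribosomal scaffold gene Rack1 on the opposite strand. Of its windows of 50 bases, 0.0% occur in another gene. The overlap, chr11:48806404-48806434, is shorter than such a window, so the windows cannot show whether reads there were shared. Rack1 was higher in both NMO CD11c+ (0.71, adjusted p = 0.00602) and NMO CD11c- (0.63, adjusted p = 0.0124).

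Trim7 (chr11:48826140-48852209, plus strand), which binds the glycogen primer glycogenin, was at 8.58 and 13.4 CPM in NMO CD11c+ libraries, 7.48, 8.13 and 8.96 CPM in NMO CD11c- libraries and 4.89, 4.18 and 7.06 CPM in controls. All NMO libraries were above all controls. The log2 fold change was 1.04 ± 0.27 (adjusted p = 0.0400) in NMO CD11c+ and 0.62 ± 0.25 (adjusted p = 0.218) in NMO CD11c-. Without NMO CD11c+ replicate 1 it was 1.32 (adjusted p = 0.0235), and without replicate 2 it was 0.68 (adjusted p = 0.133). The call was also lost without NMO CD11c- replicate 1 (0.0635) or 3 (0.0636), without control replicate 1 (0.120) or 2 (0.126) and in a fit of only the 2 groups (0.0956). The opposite-strand gene Gm16170 shares 4.97% of the windows and was itself higher in NMO CD11c+, at 3.05 ± 1.42 CPM against 0.529 ± 0.181 CPM in control (SD, n = 2 and 3; adjusted p = 0.0142).

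**Figure D5:**
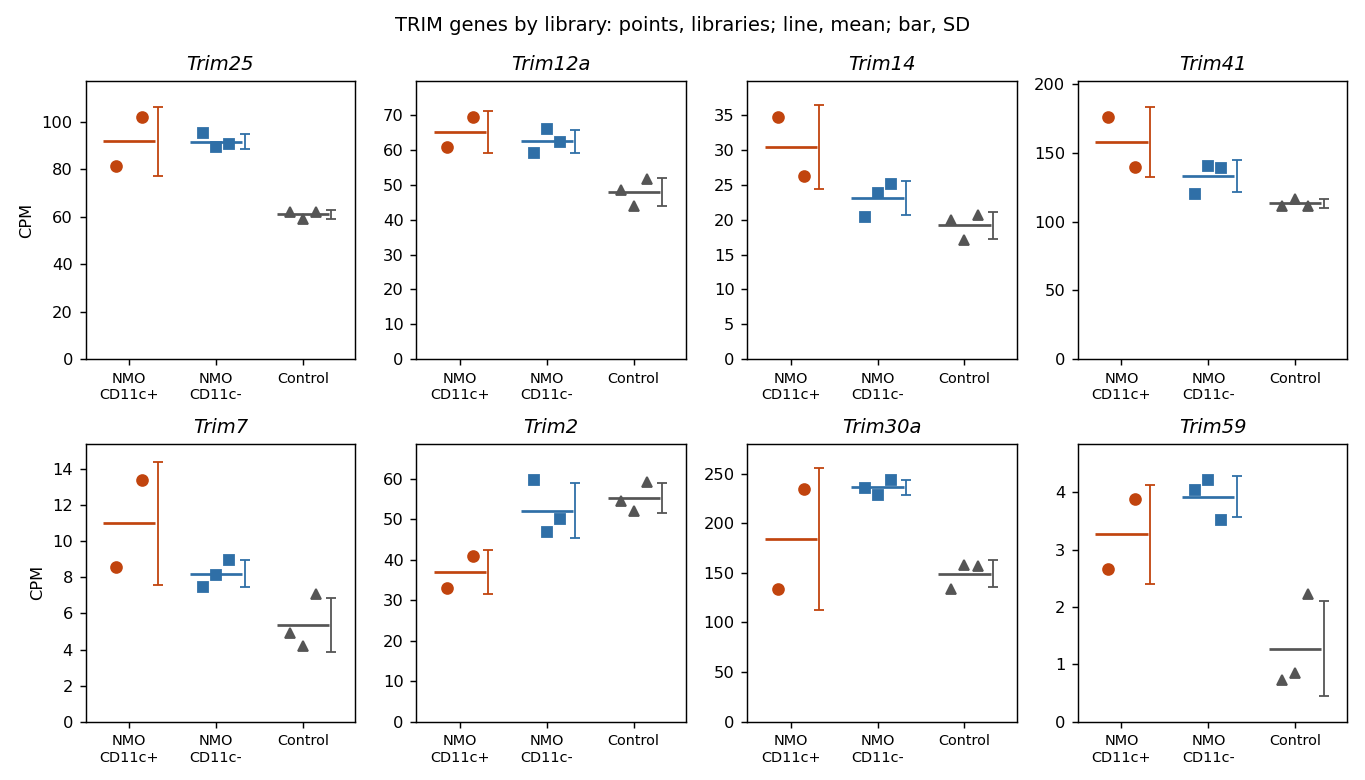
CPM of 8 TRIM genes in each library, with the mean (line) and SD (bar) of NMO CD11c+ (n = 2), NMO CD11c- (n = 3) and control (n = 3). Trim25 and Trim12a are above the controls in all 5 NMO libraries, Trim14 is highest and Trim2 lowest in both NMO CD11c+ libraries, and the NMO CD11c+ libraries of Trim30a split.

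Among the genes with NHL repeats, RNA- and protein-binding propellers, 3 of 4 were tested and Trim2 fell. It had 33.1 and 40.9 CPM in NMO CD11c+ libraries, 59.7, 46.8 and 49.96 CPM in NMO CD11c- libraries and 54.5, 52.1 and 59.2 CPM in controls. Both NMO CD11c+ libraries were below all 6 others, while NMO CD11c- and control overlapped. The log2 fold change in NMO CD11c+ relative to control was -0.58 ± 0.14 (adjusted p = 0.0339), that in NMO CD11c- was -0.08 ± 0.12, and NMO CD11c+ minus NMO CD11c- was -0.49 ± 0.15 (adjusted p = 0.187). The first value without NMO CD11c+ replicate 1 was -0.44 (adjusted p = 0.119), and after the GC and length correction -0.32 (adjusted p = 0.0688). The call was also lost without NMO CD11c- replicate 3 (0.0625), without control replicate 1, 2 or 3 (0.0889, 0.0755 and 0.114) and in a fit of only the 2 groups (0.071). Trim3, which acts at synapses in neurons, had log2 values of 0.05 in NMO CD11c+ and -0.10 in NMO CD11c-, and Trim32 had -0.13 and -0.06.

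The chromatin regulators Trim28, Trim24 and Trim33, which carry a PHD finger and a bromodomain, were not called (0 of 3 tested). Trim28 had 239 and 197 CPM in NMO CD11c+ libraries, 203, 198 and 212 CPM in NMO CD11c- libraries and 242, 235 and 214 CPM in controls. NMO CD11c+ overlapped both other groups, while every NMO CD11c- library was below every control. The log2 values against control were -0.08 (adjusted p = 0.679) in NMO CD11c+ and -0.17 (adjusted p = 0.421) in NMO CD11c-. After the GC and length correction, Trim28 was called lower in NMO CD11c+ at -0.32 (adjusted p = 0.0450). Trim24 was at -0.07 and -0.00, and Trim33, a ligase of Smad4, at -0.27 and -0.14. Of 9 listed partners of Trim28, among them the histone methyltransferase Setdb1, the Cbx proteins and the Chd and Hdac subunits, edgeR called 0 in each comparison, with medians of 0.02 in NMO CD11c+ and -0.07 in NMO CD11c- against control.

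The membrane-anchored ligases Trim13 and Trim59 were both tested and not called. Trim59 was the gene with the highest fitted log2 values of the 41 against control, 1.38 ± 0.47 (adjusted p = 0.0861) in NMO CD11c+ and 1.64 ± 0.41 (adjusted p = 0.0561) in NMO CD11c-. Its level was low, at 2.66 and 3.88 CPM in NMO CD11c+ libraries, 4.04, 4.22 and 3.53 CPM in NMO CD11c- libraries and 0.734, 0.857 and 2.22 CPM in controls. All 5 NMO libraries were above the controls. DESeq2 called it in NMO CD11c-, as did the GC and length correction (1.66, adjusted p = 0.0307). In NMO CD11c+ 3 of 16 alternatives called it, among them the GC and length correction (1.69, adjusted p = 0.0368). Without NMO CD11c+ replicate 1 the NMO CD11c- value was 1.64. The fit without control replicate 3 called Trim59 there too. Those without control replicate 1 or 2 or any 1 NMO CD11c- library did not (adjusted p of up to 0.215). Trim13, an anchored protein of the endoplasmic reticulum, had log2 values of 0.55 and 0.41.

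Of the microtubule-binding genes with a COS box, Trim36 and Trim67 were tested and not called, with log2 values of -0.24 and -1.19 in NMO CD11c+ and -0.15 and -0.39 in NMO CD11c-. Trim8 had 267 and 247 CPM in NMO CD11c+ libraries, 189, 201 and 231 CPM in NMO CD11c- libraries and 226, 225 and 232 CPM in controls. Both NMO CD11c+ libraries were the highest of the 8, but NMO CD11c+ minus NMO CD11c- was 0.31, which was not called (adjusted p = 0.259). After the GC and length correction that difference was 0.03, and the value of NMO CD11c+ against control was -0.05, beside 0.18 without the correction. Among the other 13 tested genes outside the named roles, 2 were called, Trim41 and Trim7, and the log2 values in NMO CD11c- ran from -1.22 (Trim17) to 0.62 (Trim7). Trim11 had log2 values of 0.37 (adjusted p = 0.147) in NMO CD11c+ and 0.31 (adjusted p = 0.266) in NMO CD11c-. Trim35, Trim37, Trim39, Trim45 and Trim62 lay between -0.13 and 0.32 in NMO CD11c+ and between -0.14 and 0.15 in NMO CD11c-. Trim16 and Trim17 reached at most 3.32 CPM in a library. Trim44 varied little, at 145 and 166 CPM in NMO CD11c+, 155, 152 and 156 CPM in NMO CD11c- and 155, 148 and 147 CPM in control.

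TRIM proteins that carry other symbols were Pml, Mid1, Mid2, Mefv and Rnf135, of which 4 were tested and Pml was called. Mefv had few counts, at 0 and 0.352 CPM in NMO CD11c+, 1.80, 5.27 and 1.62 CPM in NMO CD11c- and 0.734, 0.321 and 0.785 CPM in control. Its log2 value was 2.23 in NMO CD11c- against control (adjusted p = 0.0811) and -3.82 for NMO CD11c+ minus NMO CD11c- (adjusted p = 0.152). Pml, the scaffold of nuclear bodies, was at 62.0 ± 5.67 CPM in NMO CD11c+, 61.9 ± 2.93 CPM in NMO CD11c- and 44.5 ± 1.44 CPM in control (SD, n = 2, 3 and 3). It was higher by 0.48 ± 0.10 in NMO CD11c+ (adjusted p = 0.0204) and by 0.48 ± 0.09 in NMO CD11c- (adjusted p = 0.0224). Both calls were lost without any 1 control library, at an adjusted p of up to 0.0847 for NMO CD11c+ and 0.115 for NMO CD11c-, and the NMO CD11c+ call also without NMO CD11c+ replicate 1 (0.38, adjusted p = 0.0578), in a fit of only the 2 groups (0.0732) and after the GC and length correction (0.30, adjusted p = 0.0605). For NMO CD11c- it was lost without NMO CD11c- replicate 1 (0.0678), 2 (0.0949) or 3 (0.0502) as well.

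In the signal chain on which these ligases act, all 21 listed genes were tested. NMO CD11c+ had 3 higher and 0 lower genes, and NMO CD11c- also had 3 higher and 0 lower, with list medians of -0.03 and 0.04. Of all genes tested, 6.85% were called higher and 3.36% lower in NMO CD11c+, and 3% higher and 0.717% lower in NMO CD11c-. The NMO CD11c+ median was 0.05 without NMO CD11c+ replicate 1 and 0.02 after the GC and length correction. Irf7, the factor that amplifies type I interferon, was at 76.9 ± 0.138 CPM in NMO CD11c+, 65.9 ± 13.2 CPM in NMO CD11c- and 15.6 ± 3.02 CPM in control, with log2 fold changes of 2.29 (adjusted p = 9.26e-05) and 2.07 (adjusted p = 0.000163). Dhx58, which encodes the RIG-I relative Lgp2, was at 72.2 ± 8.48 CPM in NMO CD11c+, 61.0 ± 6.27 CPM in NMO CD11c- and 30.5 ± 2.09 CPM in control (adjusted p = 0.00042 and 0.0014 against control). Irf7 and Dhx58 were called under all 16 alternatives in both comparisons. Traf3 was called in NMO CD11c+ (0.36, adjusted p = 0.0434) and Ifih1, which encodes Mda5, in NMO CD11c- (0.58, adjusted p = 0.0268). Traf3 kept its call in 5 of 16 alternatives and in none that left out an NMO CD11c- library, a control library or NMO CD11c+ replicate 1 (adjusted p 0.0566 to 0.139), with 0.29 (adjusted p = 0.0994) without NMO CD11c+ replicate 1. Ifih1 was called in 10 of 16, with an adjusted p of 0.0673 to 0.131 without any 1 NMO CD11c- or control library.

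Of 13 listed E2 enzymes, 12 were tested. In NMO CD11c+ 1 was higher and 2 were lower against control, with a list median of -0.39 beside 0.01 over all genes, and in NMO CD11c- 1 was higher, with a median of -0.07. Of all genes tested, 6.85% were higher and 3.36% lower in NMO CD11c+, and 3% were higher in NMO CD11c-. The NMO CD11c+ median was -0.13 without NMO CD11c+ replicate 1, -0.73 without NMO CD11c+ replicate 2 and -0.19 after the GC and length correction. Ube2l6, the E2 of Isg15, was at 20.4 ± 1.46 CPM in NMO CD11c+, 22.4 ± 3.11 CPM in NMO CD11c- and 12.6 ± 1.18 CPM in control, with log2 fold changes of 0.69 (adjusted p = 0.0289) and 0.83 (adjusted p = 0.0138). Ube2n, which builds lysine-63 chains, was lower in NMO CD11c+ at 9.31 ± 0.704 CPM, beside 13.1 ± 1.43 CPM in NMO CD11c- and 16.8 ± 1.39 CPM in control (-0.86, adjusted p = 0.0148, in NMO CD11c+). That call was lost without control replicate 2 (0.0617) and after the GC and length correction (-0.60, adjusted p = 0.0841). Ube2e3 was also lower in NMO CD11c+ (-0.54, adjusted p = 0.0467), with -0.32 (adjusted p = 0.148) without NMO CD11c+ replicate 1, and its call was lost without any 1 NMO CD11c- or control library as well (0.0627 to 0.138), and in a fit of only the 2 groups (0.120). Ube2l6 lost its call in NMO CD11c+ without replicate 1 (0.62, adjusted p = 0.0939) and in both comparisons without any 1 control library (adjusted p of up to 0.104 and 0.0779). It was lost, too, without NMO CD11c- replicate 1 (0.0505) and in a fit of only the 2 groups (0.0596) in NMO CD11c+ and without NMO CD11c- replicate 2 in NMO CD11c- (0.0557). The lists of E2 enzymes, of the signal chain and of TRIM proteins with other symbols hold genes that interferon induces in many cells. Among them are Irf7, Dhx58, Ifih1, Pml and Ube2l6, which are named here because they were called. Ddx58, which encodes RIG-I and is on the signal chain list, was tested and was called in neither NMO subset against control. A part of interferon in these values was not tested.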

How the data were processed

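The libraries' gene counts were used as the authors deposited them: whole-number counts per Ensembl gene identifier, not normalized. Per the submitters' processing notes, the tools were STAR 2.3.11, HTSeq 0.5.4 and edgeR 3.12.0, and the build GRCm38. Neither the counting's strand setting nor the annotation behind it is stated in the sources at hand. Symbols, coordinates, exon lengths and GC content were taken from GENCODE M21 (40254 of 41388 identifiers matched a symbol), and promoter windows from RefSeq (GRCm38.p6).

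Tests used edgeR 4.0.16 under R 4.3.3, with limma 3.58.1. A group-wise filterByExpr at 10 counts kept 12002 genes, TMM set the scaling, and a single quasi-likelihood model of the 3 group means took in all 8 libraries, with 5 residual and 5.08 prior degrees of freedom and a common dispersion of 0.0223. The group of 2 is thereby assumed to vary like the others. P-values were adjusted by Benjamini-Hochberg over all genes tested. Group values are mean ± SD. The steps were tested on simulated data first. Libraries of 4943207 to 9246061 counts limit genes of a few CPM most.

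Alternatives were RLE, upper quartile and library size scaling, no filter, 10 counts in every library of a group, DESeq2 1.42.0, only the groups compared, a GC and length correction per library (natural splines with 5 degrees of freedom), and each library left out in turn. The members and gene lists were chosen with earlier results of these data known. Named by rule were every called member, the 5 highest per length, members a role needs, and up to 4 genes per pathway list with the smallest adjusted p. Trim30a, Trim30b, Trim44 and Trim59 were picked for their values, and Nans, Rack1 and Gm16170 for their position. A further microglia marker is not reported here and was left out of the summed level.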

Additional observations from a re-analysis of the deposited data

How the results depend on the processing

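The count of TRIM genes higher in NMO CD11c+ than in control was 5, and it was 3 with library size scaling and 0 in a fit of only the 2 groups compared. It stayed within 1.5 times of 5 under RLE and upper quartile scaling, both other filters, DESeq2 and the GC and length correction (6). It ran from 0 to 5 with 1 NMO CD11c- or control library left out. A like count did not always mean the same genes. The GC and length correction lost Trim41 and gained Trim30a and Trim59, and the fit without a low-count filter lost Trim12a and gained Trim59. The count of lower genes was 1, and it was 2 without a low-count filter and with DESeq2 (Trim2 and Trim23 in each), 0 in a fit of the 2 groups, and 0 to 6 with 1 library left out. The 6 came without NMO CD11c+ replicate 2, when 16.5% of all genes tested were called lower. For NMO CD11c- against control the higher count of 1 became 4 without a filter, 2 with 10 counts in every library of a group, 3 with DESeq2, 7 in a fit of the 2 groups (6.9% of all genes), 7 after the GC and length correction (5.72%), and 0 to 7 with 1 library left out. The 7 without NMO CD11c+ replicate 1 or 2 were Trim12a, Trim12c, Trim21, Trim25, Trim30a, Trim30b and Trim59 each time, beside 6.34% and 6.26% of all genes. Its lower count of 0 was 1 (Trim47) without a filter and 0 with any library left out. Between the subsets the counts of 0 higher and 0 lower were each 1 without a filter (Trim47 and Trim2), and ran from 0 to 3 and from 0 to 8 with 1 library left out, the highest again without NMO CD11c+ replicate 2 (11.5% and 12.7% of all genes). The cause was not tested. Among the 7 called log2 fold changes, none changed sign under any alternative, while 43 of 112 values missed the threshold. Scalings moved the median of all genes by at most 0.06 on the log2 scale. No paired analysis was possible because the replicate numbers only follow accession order and nothing ties an NMO CD11c+ library to an NMO CD11c- library. NMO CD11c+ values rest on 2 libraries, 1 of them with a GC trend.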
